A study of Mus musculus with 6 samples.

Results

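The cytosolic ribosomal protein genes are the 80 protein-coding mouse genes whose symbols follow the pattern Rpl or Rps with a number, together with Rplp0, Rplp1, Rplp2 and Rpsa. They were picked by symbol from GENCODE vM21, leaving out the Rps6k kinases, and matched by Ensembl identifier to the count tables, where they are 80 of 46078 genes. Of these, 49 encode proteins of the large (60S) ribosomal subunit and 31 encode proteins of the small (40S) subunit. The rule reads symbols, not measured values. Rps4l, Rpl32l and Rpl6l follow the pattern but are annotated as pseudogenes and were not included.

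The study sequenced total RNA from mice, with 3 libraries in each of 2 genotype groups. The first carries the label JMML, juvenile myelomonocytic leukemia, a blood cancer of young children with an excess of monocytic and granulocytic cells. The other group is labelled wild type (WT). The labels do not name the altered gene, the tissue, the age or the strain, nor whether replicates came from separate animals. The p-values therefore cover only the spread among these 6 libraries, part of which may be technical.

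Ribosomal proteins are made in near-equal numbers and assembled with ribosomal RNA into the 2 subunits in the nucleolus. The 60S subunit forms the peptide bond, and the 40S subunit reads the messenger RNA. Their messenger RNAs are among the most abundant in dividing cells, and most begin with a run of pyrimidines, the 5′ terminal oligopyrimidine (TOP) motif, through which mTOR signalling and the protein Larp1 control their translation. When assembly is disturbed, free Rpl5 and Rpl11 bind Mdm2, which raises p53.

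Pyrimidine runs were counted near the annotated start sites of these genes. RefSeq start-site sequences for GRCm38.p6 were matched for 60 of the 80 genes, with 72 start sites. A run of at least 8 pyrimidines lay within 50 bases of the start at 57 of 72 member starts (79.2%) and at 35.7% of 32851 starts of all genes. At the position of the TOP motif itself, a run of at least 5 pyrimidines over the start base was found at 20 of 72 member starts (27.8%) and at 10.1% of all starts. The motif CTTTCC, read on the gene's strand, lay within 50 bases of 30.6% of member starts and 4.69% of all starts. CCGGAAG, on either strand within 300 bases that reach from 250 before to 50 after the start, was found at 36.1% of member starts and 8.86% of all. AAGATGG was found at 15.3% against 6.34%, and GGGCGG at 58.3% against 35.7%. These are matches of letters, not measured sites. The following 30-base windows, written 5′ to 3′ on the gene's strand with the longest pyrimidine run within 50 bases of the start in capitals, come from Rpl11 (chr4:136053358-136053387, minus strand), which had the smallest p of all members, from Rpl38 (chr11:114668568-114668597, plus strand) and Rps13 (chr7:116334161-116334190, minus strand), which were also called, and from Rps6 (chr4:86857349-86857378, minus strand), Rps27 (chr3:90213632-90213661, minus strand) and Rpl28 (chr7:4792952-4792981, plus strand), which were not.
Rpl11: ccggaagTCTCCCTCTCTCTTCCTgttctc
Rpl38: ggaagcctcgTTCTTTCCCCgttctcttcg
Rps13: tgagtggcgtcaCTTCCTgtgcggcttgat
Rps6: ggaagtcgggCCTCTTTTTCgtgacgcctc
Rps27: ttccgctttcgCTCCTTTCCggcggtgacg
Rpl28: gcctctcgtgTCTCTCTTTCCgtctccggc
The runs were 17, 10, 6, 10, 9 and 11 bases long in that order. They covered the annotated start base in Rpl38, Rps6, Rps27 and Rpl28, but lay 13 to 29 bases after it in Rpl11, whose window begins downstream of the start, and 12 to 17 bases after it in Rps13. In Rpl10 the longest run lay 40 to 49 bases after the start, and in Rpl5 and Rps16 it lay before the start. Each window was drawn around the gene's own longest run, so that called and uncalled genes were bound to show one. The run of Rps13, a called gene, was the shortest of the 6 and below the 8 bases counted above.

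The JMML libraries held 91976512 to 108395459 counts and the WT libraries 47096464 to 61656272, so the JMML libraries were deeper. Values below are CPM, a gene's count scaled to a common library size, after TMM scaling, which sets libraries level on the bulk of their genes, unless a share of all counts is named. Markers of several cell types moved with the groups. All 7 B cell markers were lower in JMML, with a summed level of 9.82 to 14.9 CPM against 96.5 to 392 CPM, and 4 of 6 erythroid markers were lower (43.0 to 259 against 659 to 1085 CPM). All 5 T cell markers (5.22 to 7.56 against 16.8 to 32.5 CPM), all 5 megakaryocyte markers (11.8 to 26.3 against 210 to 674 CPM) and all 6 endothelial and stromal markers (51.8 to 90.4 against 354 to 673 CPM) were lower too. Of the neutrophil markers 3 of 8 were higher (15790 to 24470 against 9418 to 15650 CPM), as were 3 of 5 monocyte markers (2129 to 2948 against 1129 to 1250 CPM). The labels name no tissue against which these could be checked. Their part in the ribosomal protein values was not tested, and in bulk RNA a change in the number of cells of a type cannot be told apart from a change in RNA per cell. In the titles, an F closes the identifiers of the first and second JMML replicates, and an M closes the other 4. The identifiers of the third JMML and the third WT replicate share their opening part, and the labels do not say what this means.

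The share of sequenced RNA that ribosomal protein genes took overlapped between the groups. In the JMML libraries it was 4.80%, 4.19% and 3.95% of all counts, in the order of the replicate numbers, and in the WT libraries 4.15%, 3.82% and 3.81%. JMML replicate 1 was the highest library, and JMML replicate 3 lay below WT replicate 1. The means were 4.32% ± 0.441 (SD, n = 3) and 3.93% ± 0.193 (SD, n = 3), which did not differ beyond the spread by a two-sided exact permutation test (p = 0.2, where 0.1 is the smallest this design allows). The difference of 0.388 percentage points was 0.144 without JMML replicate 1 and 0.0194 without both F libraries. As a share of nuclear protein-coding counts the members took 6.06%, 4.95% and 4.61% in JMML and 5.07%, 4.63% and 4.62% in WT. That difference was 0.433 percentage points (two-sided exact permutation p = 0.7), and JMML replicate 3 was the lowest library.

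On the TMM scale the groups separated. The summed level of the members was 53900, 43230 and 41400 CPM in the JMML libraries and 39350, 34450 and 36840 CPM in the WT libraries. All 3 JMML libraries lay above all 3 WT libraries, with a ratio of means of 1.25 (two-sided exact permutation p = 0.1, the smallest possible). The test of this sum was not planned. The share and the scaled sum differ because the TMM factors were 0.892 to 0.971 in the JMML libraries and 1.04 to 1.11 in the WT libraries. Genes whose symbols begin with Rn7s, pooled without telling their RNAs apart, took 9.12% of the counts of JMML replicate 1 and 4.96% to 6.92% of the other libraries. The part of this in the values of JMML replicate 1 was not tested.

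**Figure D1:**
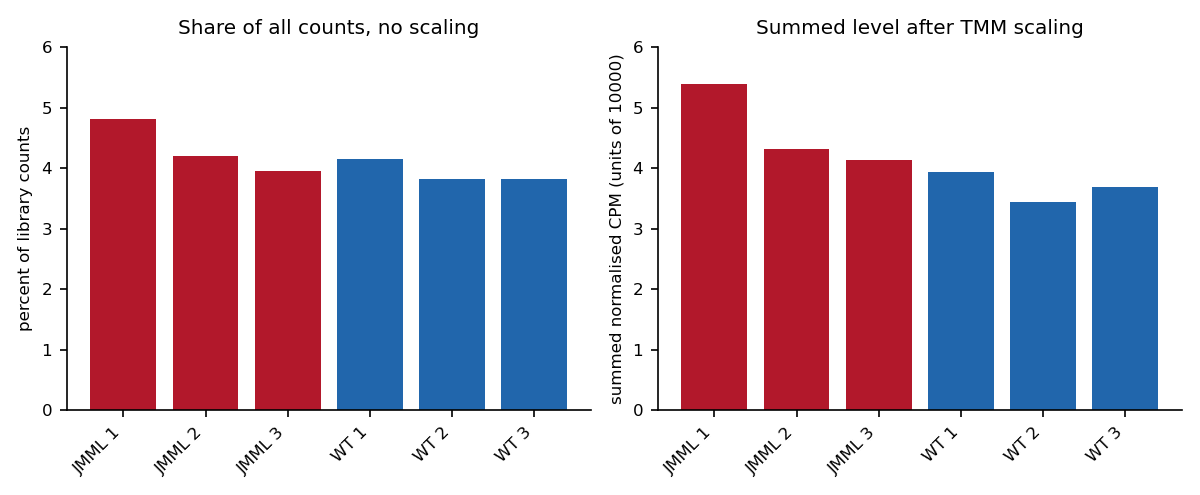
Summed level of the 80 ribosomal protein genes in each library, as a percentage of all counts (left) and as summed CPM after TMM scaling (right, in the unit written on the axis), with 1 bar per library. The shares overlap between groups (3.95% to 4.80% in JMML, 3.81% to 4.15% in WT), while the scaled sums do not (41400 to 53900 against 34450 to 39350 CPM).

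The balance of the 2 subunits was also compared. The ratio of 60S to 40S member counts was 1.32, 1.396 and 1.377 in JMML and 1.396, 1.404 and 1.398 in WT. JMML replicate 1 was the lowest library, and the groups did not differ beyond the spread (two-sided exact permutation p = 0.2). The difference, JMML minus WT, was -0.035. With pseudogenes that carry a member's name added to that member, it was -0.0313 (two-sided exact permutation p = 0.1, the smallest possible).

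Gene by gene, few members passed the test. Of the 80 genes 79 had enough counts to be tested among 18097 genes, and all but Rpl3l and Rpl39l of these were above 10 CPM in every library. Of these 79, 7 were higher in JMML at an adjusted p under 0.05 by edgeR's quasi-likelihood test, which is 8.86% of 79, below the 12.4% of all tested genes that were called higher (26.2% were called in either direction). They included Rpl11, Rpl38, Rpl10, Rps20, Rpl32 and Rps13. None was lower, against 13.8% of all tested genes; the count of lower members was also 0 at an unadjusted p under 0.05, by DESeq2 and by limma-voom. An unadjusted p under 0.05 with a higher level was seen for 34 of 79 members and 19.3% of all genes. The count of higher calls beside the share of all genes depended on the test. The DESeq2 Wald test called 19 of 79 members higher, beside 15.1% of all tested genes. With limma-voom it was 8 of 79, beside 12.3%.

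The median log2 fold change of the 79 members was 0.35, a fold of 1.28, and that of all tested genes was -0.02. All 79 had a log2 fold change above 0 (48.5% of all genes did), but 11 of 79 lay below 0 when libraries were scaled by their totals alone. That scaling moved the median of all genes to -0.21 and of the members to 0.16. A change of scaling shifts all genes by nearly the same amount. The 0.37 by which members stood above all genes was thus bound to stay nearly the same under both. The share of all calls that were higher went from 47.4% to 27.0%. In 52 of the 79 genes (65.8%) all JMML libraries lay above all WT libraries, against 22.9% of all tested genes, and in none was it the other way round.

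**Figure D2:**
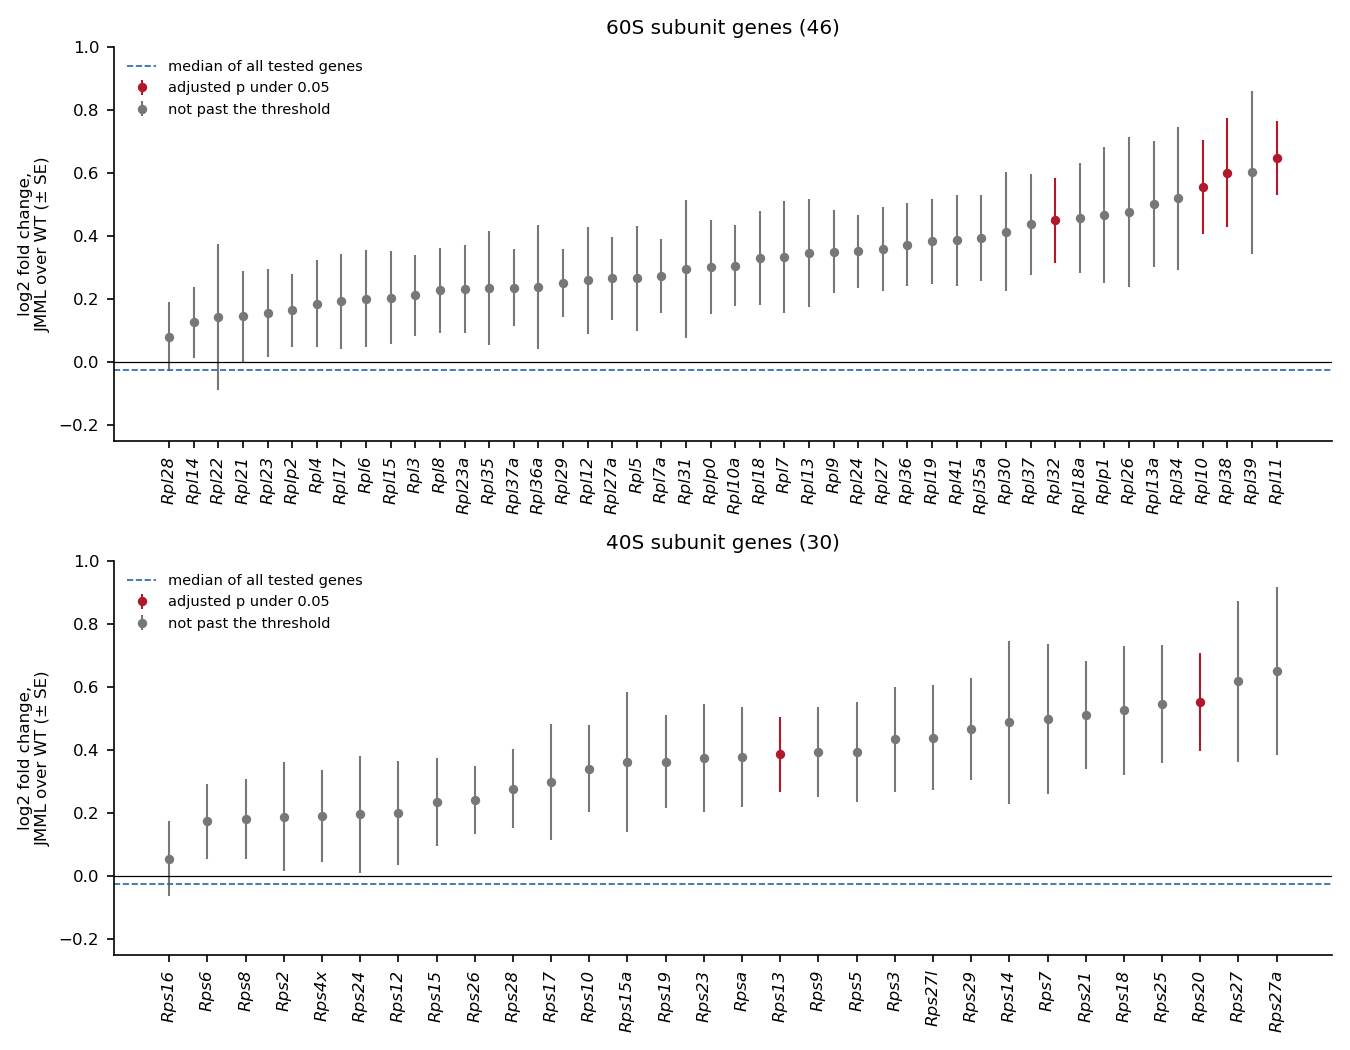
Log2 fold change (JMML over WT, TMM scaling) of 76 abundant ribosomal protein genes with bars of 1 standard error, 60S members above and 40S members below, called genes in red and a dashed line at the median of all tested genes. All points lie above 0 with this scaling, while 11 of the 79 tested genes fall below 0 with library totals alone, and 6 of the genes shown are called.

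Among the 77 abundant genes the log2 fold change ran from 0.06 (Rps16) to 0.65 (Rps27a), with standard errors from 0.11 to 0.27. The 60S members had a median of 0.30 over 46 abundant genes, and the 40S members 0.38 over 31. Of the tested 60S members 4 of 48 (8.33%) were called higher, and of the 40S members 3 of 31 (9.68%), beside 12.4% of all tested genes. The fold change was set against messenger length. Spearman's rho was -0.29 and Pearson's r -0.09 across the 77 genes, which share the same libraries and are not independent replicates.

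JMML replicate 1 held the highest level of most members. Of the 77 abundant genes 71 were highest in JMML replicate 1, 3 in JMML replicate 2, 1 in JMML replicate 3 and 2 in WT replicate 1, and 55 were lowest in WT replicate 2. The level in JMML replicate 1 over the mean of the other JMML libraries was 1.27 at the median and ran from 0.906 (Rps16) to 1.95 (Rps27a). It was above 1.5 for 18 genes, among them Rpl39 (1.92), Rps27 (1.83), Rpl26 (1.79), Rps7 (1.76) and Rps14 (1.74), and at or below 1 for Rps16, Rpl28, Rps2 and Rps20. The excess thus differed between genes of the same subunit, such as Rps27a and Rps16. Without JMML replicate 1 the median log2 fold change of the members was 0.23, and Rpl38 and Rpl11 were the 2 genes called. JMML replicates 2 and 3 both lay above every WT library in 52 of the 77 genes. Setting 2 libraries apart from 3 is easier than setting 3 apart from 3, and the share of all tested genes was not computed for it.

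**Figure D3:**
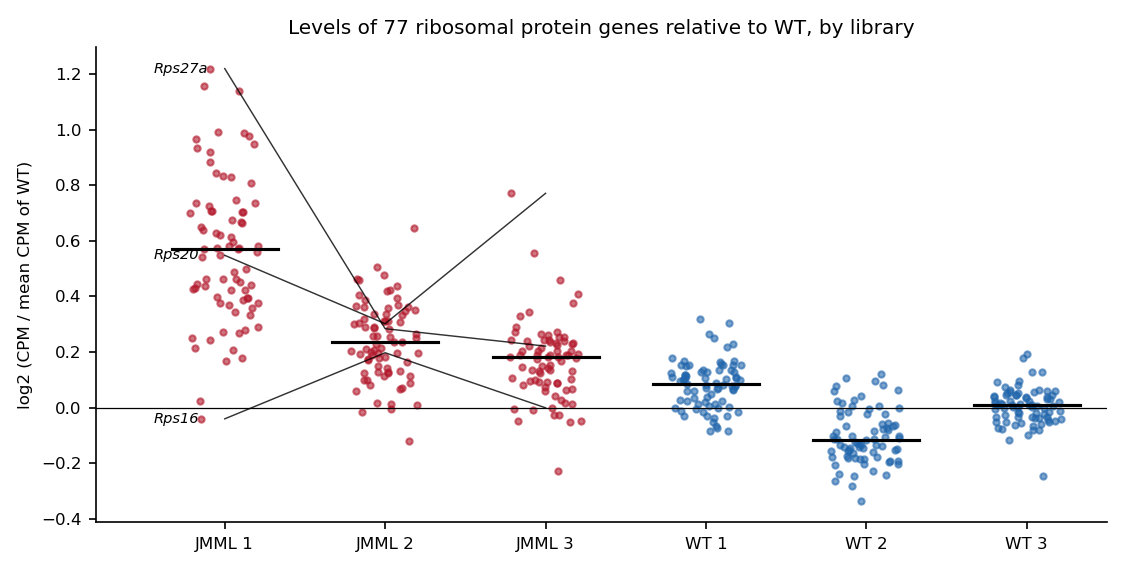
Log2 level of each abundant ribosomal protein gene in each library relative to its WT mean, 1 point per gene, with the library median marked and Rps27a, Rps20 and Rps16 joined across the JMML libraries. Most genes are highest in JMML replicate 1 (71 of 77), where Rps27a stands at 1.95 times the mean of the other JMML libraries, while Rps20 is highest in JMML replicate 3.

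Rpl11 and Rpl5 form, with 5S ribosomal RNA, the particle that joins the 60S subunit late and that binds Mdm2 when free. Rpl11 (ENSMUSG00000059291, chromosome 4, 136028265 to 136053428, GRCm38) had 535.9, 504.3 and 473.8 CPM in the JMML libraries and 311.1, 350.0 and 304.8 CPM in the WT libraries. All JMML libraries were high and the groups were well apart. Rpl11 rose by a log2 fold change of 0.65 ± 0.12 (SE; adjusted p = 0.00945), and it was called in 19 of 21 alternative analyses. The exceptions were the identifier letter as a covariate (0.56, adjusted p = 0.0754) and the M libraries alone (0.60, adjusted p = 0.0732), where 1 JMML library remained. No WT library has an F, so with the covariate the group difference also rests on JMML replicate 3 alone. Its partner Rpl5 had 1028, 737.7 and 716.1 CPM in JMML and 698.5, 691.5 and 672.8 CPM in WT. JMML replicate 1 alone was far above WT, and the difference of 0.27 ± 0.17 was not called (adjusted p = 0.264). The ratio of Rpl11 to Rpl5 levels was 0.521, 0.684 and 0.662 in JMML and 0.446, 0.506 and 0.453 in WT, a comparison chosen after the values of both genes were seen.

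The other called 60S genes lie at different sites of the subunit. Rpl10, an X-linked gene whose protein is placed last and completes the P site region, had 498.8, 425.3 and 398.1 CPM in JMML and 333.5, 256.4 and 309.5 CPM in WT. The groups did not overlap, and Rpl10 rose by 0.56 ± 0.15 (adjusted p = 0.0317). Rpl38, known from mouse mutants with altered patterning of the axial skeleton, had 405.1, 284.4 and 266.3 CPM in JMML and 213.2, 200.7 and 216.1 CPM in WT. JMML replicate 1 was highest by far, the other JMML libraries were still above all WT libraries, and Rpl38 rose by 0.60 ± 0.17 (adjusted p = 0.0398). Rpl32, a protein of the solvent side of the subunit, had 806.8, 742.7 and 659.5 CPM in JMML and 552.8, 487.5 and 575.9 CPM in WT. The groups did not overlap, and Rpl32 rose by 0.45 ± 0.13 (adjusted p = 0.0449).

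Of the called 40S genes Rps20, a protein of the subunit's head, followed another order of libraries than most members. It had 401.7, 338.8 and 468.8 CPM in JMML and 306.3, 246.6 and 271.4 CPM in WT, with its highest level in JMML replicate 3. It rose by 0.55 ± 0.16 (adjusted p = 0.0375). Rps13, a protein of the platform side that contacts the 60S subunit, had 351.2, 347.5 and 329.5 CPM in JMML and 281.2, 230.9 and 274.3 CPM in WT. It rose by 0.39 ± 0.12 (adjusted p = 0.0495), just inside the threshold.

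The calls of these genes beside Rpl11 were each lost in part of the alternatives. They held in 12 of 21 alternative analyses for Rpl10, 10 for Rpl38, 9 for Rpl32, 13 for Rps20 and 5 for Rps13. Leaving out 1 library ended the Rpl10 call without JMML replicate 1 (0.47, adjusted p = 0.0645) or 2 (0.60, 0.0666) and without WT replicate 2 (0.45, 0.0944) or 3 (0.62, 0.0624). It ended the Rpl38 call without JMML replicate 2 (0.69, adjusted p = 0.0572) and without WT replicate 1 (0.66, 0.0717), 2 (0.56, 0.116) or 3 (0.66, 0.0699), but not without JMML replicate 1 or 3. Rps20 lost its call without any 1 library other than JMML replicate 2, with log2 fold changes from 0.45 to 0.69 and adjusted p from 0.0518 to 0.136. Rps13 lost its call without any 1 library (0.30 to 0.49), and so did Rpl32 except without JMML replicate 3 (0.38 to 0.54). The direction held in each of these.

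**Figure D4:**
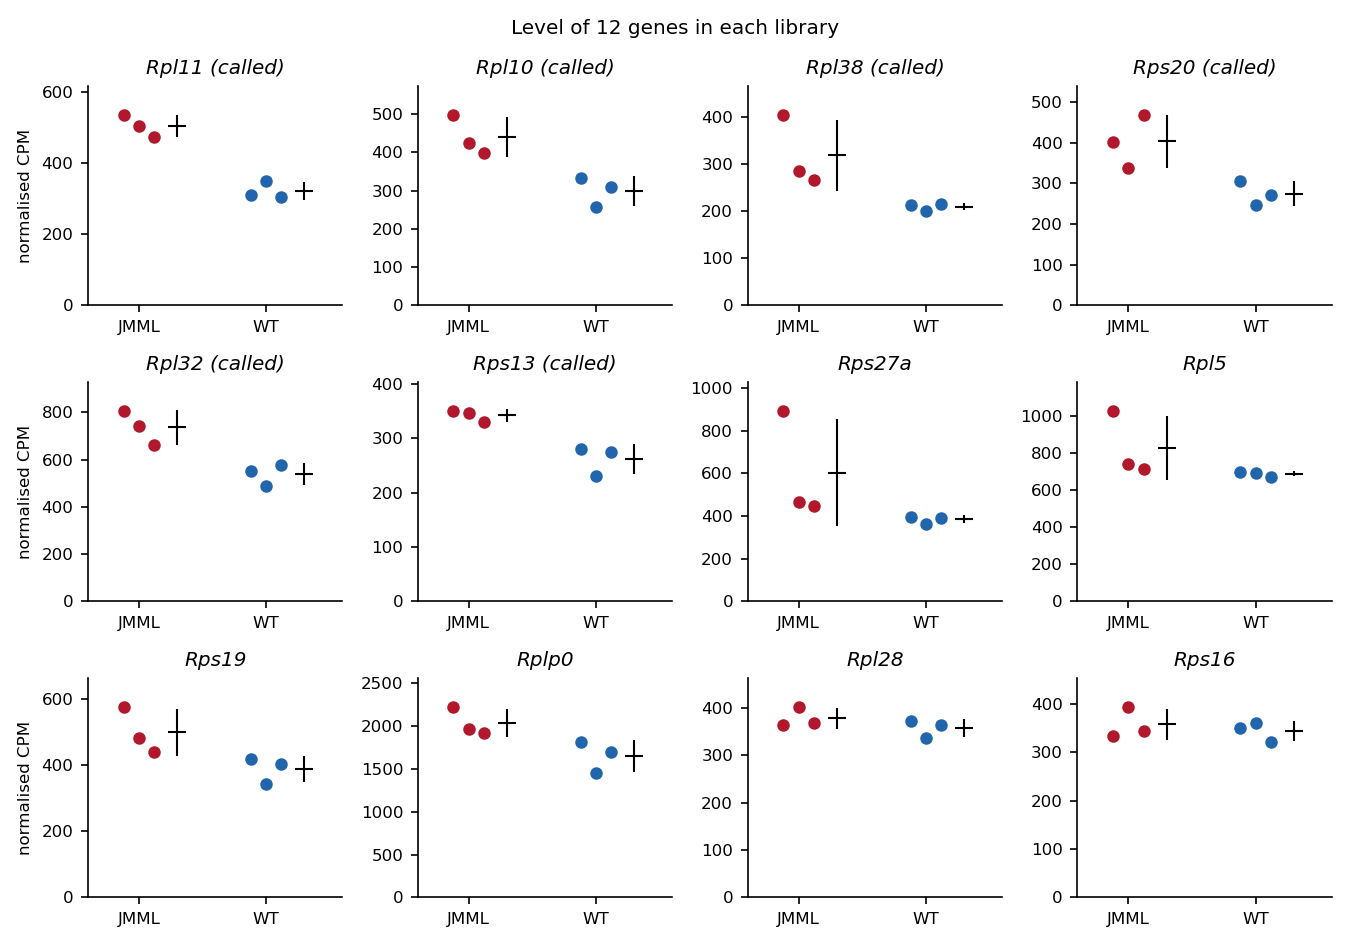
Levels of 12 ribosomal protein genes in CPM after TMM scaling, with 1 point per library in the order of the replicate numbers and the mean ± SD of each group beside them; called genes are marked. Rpl11 is well apart between groups (473.8 to 535.9 against 304.8 to 350.0 CPM), whereas Rpl5 differs mainly in JMML replicate 1 (1028 CPM).

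The proteins of the flexible stalk that recruits elongation factors were not called. Rplp0, the base of the stalk, had 2223, 1967 and 1917 CPM in JMML and 1813, 1447 and 1696 CPM in WT. The groups did not overlap, but the difference of 0.30 ± 0.15 missed the threshold (adjusted p = 0.173). For Rplp1 it was 0.47 ± 0.22 (adjusted p = 0.148) and for Rplp2 0.16 ± 0.11 (adjusted p = 0.315). Rpl3, which lines the peptidyl transferase centre, had a difference of 0.21 ± 0.13 (adjusted p = 0.250).

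Nor were several 40S genes studied for their roles in blood or signalling. Rps6, the substrate of the S6 kinases, had 846.3, 776.3 and 746.2 CPM in JMML and 693.8, 728.9 and 676.9 CPM in WT (0.17 ± 0.12, adjusted p = 0.304). Rps14, the gene whose single-copy loss marks the 5q- form of myelodysplasia, had 857.6, 504.4 and 483.9 CPM in JMML and 522.3, 347.9 and 445.7 CPM in WT. The groups overlapped, and the difference was 0.49 ± 0.26 (adjusted p = 0.196). Rpsa, which is also known as the laminin receptor, had 2509, 1915 and 1915 CPM in JMML and 1694, 1542 and 1636 CPM in WT (0.38 ± 0.16, adjusted p = 0.116). All JMML libraries were above all WT libraries there, without passing the test.

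Rps19 is the gene most often mutated in Diamond-Blackfan anaemia, a failure of red cell formation. It had 578.0, 481.8 and 440.2 CPM in JMML and 418.4, 343.2 and 404.0 CPM in WT (0.36 ± 0.15, adjusted p = 0.107). Of 15 ribosomal protein genes known from this disease 1 (6.67%), Rpl11, was called higher and none lower. Of all tested genes 12.4% were called higher and 13.8% lower. The median log2 fold change of the 15 was 0.36, close to the 0.35 of all members. In 12 of the 15 (80%) the groups did not overlap, against 65.8% of all members and 22.9% of all tested genes.

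Among the 77 abundant genes those with the smallest and the largest differences were both uncalled. Rps16 had 334.2, 394.0 and 343.5 CPM in JMML and 350.5, 359.4 and 320.7 CPM in WT, with fully mixed groups (0.06 ± 0.12, adjusted p = 0.751). Rps27a, which is made as a fusion with ubiquitin, had 893.4, 467.4 and 447.5 CPM in JMML and 397.1, 362.4 and 391.9 CPM in WT. Its difference of 0.65 ± 0.27 equalled that of Rpl11, but it was spread over a JMML range from 447.5 to 893.4 CPM and was not called (adjusted p = 0.110).

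Paralogs allow members of the same position in the ribosome to be compared. Rps27 and the p53-regulated Rps27l had differences of 0.62 ± 0.26 (adjusted p = 0.113) and 0.44 ± 0.17 (adjusted p = 0.0888). Rps27 was called without JMML replicate 3 (0.84, adjusted p = 0.0405), and Rps27l without JMML replicate 2 (0.60, adjusted p = 0.0393). Rps27l levels were 0.178, 0.193 and 0.311 of Rps27 levels in JMML and 0.258, 0.248 and 0.219 in WT, with overlapping groups (two-sided exact permutation p = 0.8). Rpl39 had a difference of 0.60 ± 0.26 (adjusted p = 0.123), and its paralog Rpl39l, mostly expressed in testis, had 140, 92 and 25 counts in JMML and 15, 12 and 21 in WT. With the deeper JMML libraries scaled, these were 1.71, 0.875 and 0.275 CPM against 0.231, 0.230 and 0.361 CPM, and the groups overlapped. JMML replicates 1 and 2 were high there, and the difference of 1.79 ± 0.66 was not called (adjusted p = 0.0829), but it was without JMML replicate 3 (2.25, adjusted p = 0.0209). Rpl3l, the muscle paralog of Rpl3, had 93, 67 and 38 counts in JMML and 0, 22 and 37 in WT, where 0 allows up to 3 counts (1.06 ± 1.03, adjusted p = 0.473). Its levels were 1.135, 0.637 and 0.418 CPM in JMML and 0, 0.422 and 0.636 CPM in WT, with overlapping groups. Rpl10l, a testis paralog of Rpl10, had 2 counts in JMML replicate 2, 4 in WT replicate 3 and 0 elsewhere, and was not tested. Rpl22, whose loss is known in T cell leukemia, had a difference of 0.14 ± 0.23 (adjusted p = 0.672). Of the X-linked members, Rpl10 was called and Rpl39, Rps4x (0.19 ± 0.14, adjusted p = 0.356) and Rpl36a (0.24 ± 0.20, adjusted p = 0.395) were not.

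Per kilobase of messenger the mean level over all 6 libraries ran 18.1-fold, from 91.5 to 1654 CPM per kb among the 77 abundant genes, with a median of 657. Rps12 (1654), Rplp1 (1560), Rplp0 (1358), Rpl32 (1233), Rpl8 (1180) and Rpsa (1169) led this order. Rps20 (91.5), Rps27l (154) and Rpl37 (309) were last. The transcript chosen for Rps20 had 3706 bases, against 494 for Rps12, and whether its reads came from that transcript was not tested. The low end of the 18.1-fold range rests on this length. Genes that share reads with pseudogenes are uncertain in this order.

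Pseudogene copies share reads with the parent genes, which makes the level of any single member uncertain. The tables held 268 pseudogenes named after Rpl or Rps genes, of which 20 had 0 counts in every library. Together they took 0.290% to 0.381% of all counts, which was 7.61% to 7.96% of the members' counts in each library. This proportion was nearly the same in all 6 libraries. Of 135 tested pseudogenes 6 were called higher and 2 lower, both below the shares of all tested genes (12.4% and 13.8%), with a median log2 fold change of 0.39. For 20 members the pseudogenes that carry their name held over 10% of the member's counts, and for Rps6 they held 56.1%, followed by Rpl15 (44.9%), Rpl31 (38.9%, from 21 copies) and Rpl36a (38.9%). For called members described above the proportion was 25.8% for Rpl10, 16.5% for Rps13 and 4.92% for Rpl38. No pseudogene was matched by name to Rpl11, Rps20 or Rpl32. Only names with -ps and a number were matched to a parent, so that Rpl32l, Rpl6l, Rpl39-ps and Rps12l1 were not, and these proportions are lower limits. Rpl10-ps6 (0.56 ± 0.14, adjusted p = 0.0258) and Rpl10-ps1 (0.68 ± 0.18, adjusted p = 0.0315) were called higher beside Rpl10. With the named pseudogenes added to their parents, 8 members were called higher and the median was 0.37.

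Ribosomal genes with other symbols were described in the same way. Of 7 such genes 3 (42.9%) were called higher and none lower, with a median of 0.47. For this and the lists that follow, the shares of all tested genes are 12.4% higher and 13.8% lower. Fau, a ubiquitin-like fusion that yields the 40S protein eS30, had 583.7, 517.4 and 466.0 CPM in JMML and 358.5, 333.6 and 362.0 CPM in WT and rose by 0.57 ± 0.13 (adjusted p = 0.0177). Rpl36al, a copy of Rpl36a, rose by 0.51 ± 0.13 (adjusted p = 0.0279). Rps3a1 (0.22 ± 0.16, adjusted p = 0.348), Rack1 (0.14 ± 0.14, adjusted p = 0.465) and Rpl7l1 (0.35 ± 0.13, adjusted p = 0.0951) were not called. Rpl22l1, the paralog of Rpl22, had 89.4, 54.0 and 59.4 CPM in JMML and 49.1, 42.7 and 46.0 CPM in WT (0.56 ± 0.20, adjusted p = 0.0725). Its ratio to Rpl22 was 0.308, 0.311 and 0.369 in JMML and 0.276, 0.245 and 0.216 in WT, which do not overlap (two-sided exact permutation p = 0.1, the smallest possible). The test of this ratio was not planned. Without WT replicate 2 none of the 7 was called (Fau 0.53, adjusted p = 0.0645), and without WT replicate 3 only Fau was. Rpl36al also lost its call without WT replicate 1 (0.58, adjusted p = 0.0524).

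Other genes with TOP messengers, not all of them genes of translation, were called in both directions. Of 15 other TOP genes 4 (26.7%) were called higher, among them Vim, Fau and Tma7, and 1 (6.67%) lower, with a median of 0.22. Vim, the intermediate filament of mesenchymal and myeloid cells, had 1114, 1248 and 1123 CPM in JMML and 389.4, 411.5 and 404.7 CPM in WT and rose by 1.53 ± 0.12 (adjusted p = 0.00186). Pabpc1, the poly(A) binding protein, had 554.8, 668.8 and 508.4 CPM in JMML and 1219, 1467 and 820.8 CPM in WT and fell by 1.02 ± 0.23 on the log2 scale (adjusted p = 0.0186). Vim and Pabpc1 thus moved in opposite directions within this list. The Pabpc1 call was lost without JMML replicate 3 (-0.91, adjusted p = 0.0504), WT replicate 1 (-0.93, adjusted p = 0.0542) or WT replicate 2 (-0.82, adjusted p = 0.0609).

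Of 9 factors of elongation and release, among them the release factors Etf1 and Gspt1, none was called in either direction by edgeR, and none had an unadjusted p under 0.05; their median was 0.12. Eef1a1, which delivers transfer RNA and whose messenger carries a TOP motif, had 6703, 6429 and 6271 CPM in JMML and 5901, 5454 and 5428 CPM in WT (0.21 ± 0.15, adjusted p = 0.321). Of 30 genes in a list of initiation factors and poly(A) binding proteins 1 (3.33%) was higher, Eif3h (0.41 ± 0.10, adjusted p = 0.0259), with a median of 0.12. The 2 lower genes (6.67%) were the poly(A) binding proteins Pabpc1 and Pabpc4 (-1.08 ± 0.20, adjusted p = 0.0103), and no initiation factor proper was lower. Eif3h lost its call without JMML replicate 2 (0.45, adjusted p = 0.0534), WT replicate 1 (0.45, 0.0604) or WT replicate 2 (0.39, 0.0876).

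Genes that build ribosomes include the biogenesis factors and RNA polymerase I. Of 53 biogenesis factors 1 was higher, Pes1 (0.45 ± 0.12, adjusted p = 0.0335), which acts in 60S maturation. One was lower, Mdn1 (-0.55 ± 0.14, adjusted p = 0.0264), the large ATPase that strips factors from the 60S precursor, and the list's median was -0.04. The Pes1 call was lost without any 1 library other than WT replicate 1 (0.37 to 0.50) and the Mdn1 call without any 1 library other than WT replicate 3 (-0.58 to -0.42); Mdn1 was at -0.11 after the trend with transcript length was removed. Of 15 genes of RNA polymerase I, which makes ribosomal RNA, Polr1d (0.53 ± 0.14, adjusted p = 0.0282) and Cd3eap (0.51 ± 0.15, adjusted p = 0.0425) were higher and none was lower, with a median of 0.13. Both lost their calls without any 1 JMML library (0.51 to 0.58) and without WT replicate 2 (0.41 and 0.39), and Cd3eap also without WT replicate 1 (0.65) or 3 (0.58).

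Regulators of TOP translation and of ribosome production were a further list. Of 18 genes 5 (27.8%) were lower and 1 (5.56%) was higher, with a median of -0.08. Myc, a transcription factor that drives ribosome production, had 36.4, 43.0 and 42.2 CPM in JMML and 94.1, 88.1 and 63.6 CPM in WT, so that the groups did not overlap. It fell by 1.02 ± 0.17 on the log2 scale (adjusted p = 0.0069), a call that ended with the letter covariate (-0.96, adjusted p = 0.0562) and in the M libraries (-0.92, adjusted p = 0.0716). Tsc1 (-0.54 ± 0.11, adjusted p = 0.0114), an inhibitor of mTORC1, Rptor (-0.46 ± 0.11, adjusted p = 0.0264), a subunit of it, Tial1 (-0.50 ± 0.12, adjusted p = 0.0258) and Eif4ebp2 were the others lower, and the kinase Akt1 was higher (0.50 ± 0.12, adjusted p = 0.0261). Leaving out JMML replicate 1, 2 or 3 or WT replicate 1 or 2 left 2 genes lower, and Akt1 lost its call without JMML replicate 2 (0.44, adjusted p = 0.0722) or 3 (0.53, 0.0609) or WT replicate 2 (0.42, 0.104) or 3 (0.57, 0.0566). Mtor itself was at -0.16 ± 0.12 (adjusted p = 0.336) and Larp1 at -0.39 ± 0.24 (adjusted p = 0.249).

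Among 15 chaperones and partners of ribosomal proteins 1 was called. Cdkn1a, the p21 inhibitor of the cell cycle and a p53 target, had 9.053, 12.24 and 11.97 CPM in JMML and 4.60, 3.85 and 5.09 CPM in WT and rose by 1.296 ± 0.20 (adjusted p = 0.00608), in 21 of 21 alternatives as well. Mdm2, to which free Rpl11 binds, was at 0.04 ± 0.12 (adjusted p = 0.841), and Trp53, the gene of p53, was at -0.46 ± 0.17 (adjusted p = 0.0817).

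Many calls in these lists ended under other settings. With the letter covariate and also in the M libraries alone those of Fau, Rpl36al, Pabpc1, Pabpc4, Eif3h, Pes1, Mdn1, Polr1d, Cd3eap, Tsc1, Tial1 and Akt1 ended, as did that of Tma7 with the covariate. With the length trend removed the calls of Fau (0.37, adjusted p = 0.0636), Rpl36al (0.34, 0.0803), Tma7 (0.33, 0.0635), Eif3h (0.27, 0.0835) and Tsc1 (-0.28, 0.0856) ended. With library totals alone, Fau, Rpl36al, Tma7, Eif3h, Pes1, Polr1d, Cd3eap and Akt1 lost theirs (0.23 to 0.38).

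**Figure D5:**
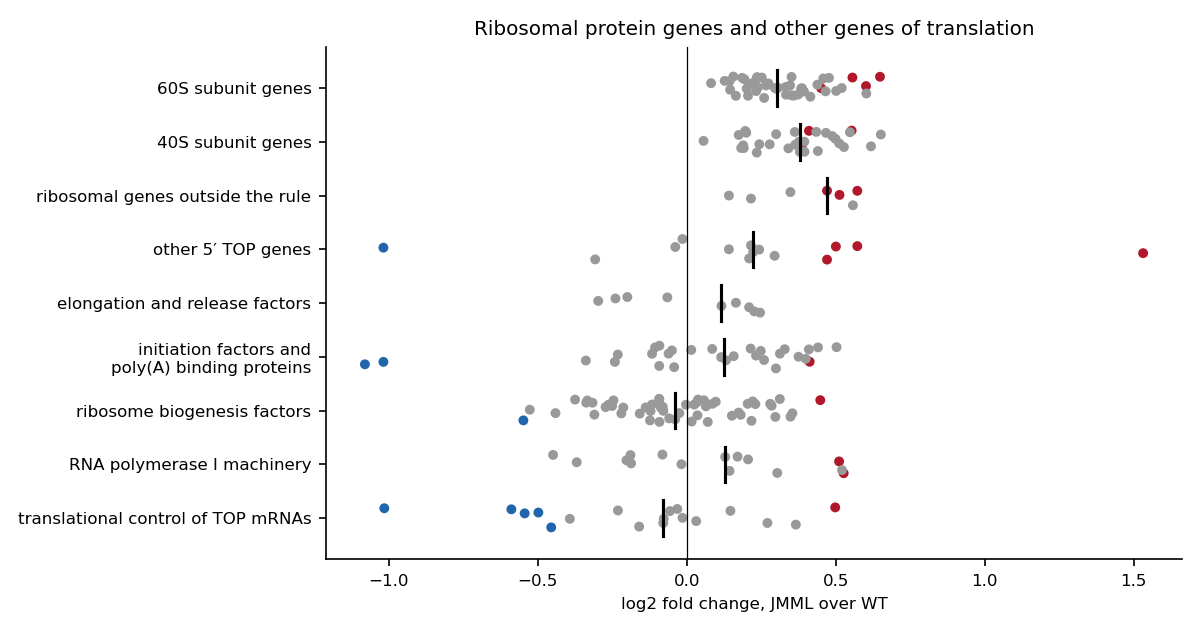
Log2 fold changes (JMML over WT, TMM scaling) of the genes in each list related to ribosomes, 1 point per gene, with genes called higher in red, genes called lower in blue and the list median as a bar; of the members the 77 abundant ones are shown. Medians run from -0.08 (regulators of TOP translation) to 0.47 (ribosomal genes with other symbols), beside 0.30 for the 60S and 0.38 for the 40S members and -0.02 for all tested genes.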

How the data were processed

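The authors deposited whole-number counts for each Ensembl gene, with no normalization. Libraries were made with a stranded kit for total RNA, per the labels' protocols. Per the submitters' processing notes the build was GRCm38 and the tools included DESeq2 1.22.2, StringTie 1.3.3b, Picard 2.0.1 and STAR 2.5.3a. The counter, its annotation, the use of strand and the handling of multi-mapped reads were not given in the sources used here. If reads with several matches were dropped, members with near-identical pseudogenes are undercounted.

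Of 46078 identifiers 45229 matched GENCODE vM21. Counts were tested with edgeR 4.0.16 under R 4.3.3, with its quasi-likelihood test over 18097 genes kept by filterByExpr, with TMM scaling, Benjamini-Hochberg adjustment over all of them and an adjusted p under 0.05 for a call. The biological coefficient of variation, common to all genes, was 29.4%. A standard error is the size of the log2 fold change over the square root of its F. Per-kilobase levels used the shortest principal transcript. Some genes that the naming rule covers are not reported here.

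The members and lists were chosen with earlier results of these data known. Named genes were the called members with the largest changes, a set of members named whatever their values, ribosomal genes with other symbols, and up to 4 genes of each list with the smallest p. Rps16, Rps27a, Rpl28, Rps2, Rpl36a, Mdm2, Mtor, Larp1 and the members in the paragraph on JMML replicate 1 were picked after their values were seen. Alternatives were other scalings, DESeq2 1.42.0, limma-voom (limma 3.58.1), other count filters, a block for the replicate number, a covariate for the identifier letter, M libraries alone, each replicate left out, removal of the length trend (loess, span 0.5), thinning to the smallest total and pseudogenes added to parents. Removal of the trend with GC content, alone and without JMML replicate 1, was added after seeing the data. Every pair of libraries differed by more than sampling noise (chi-square over degrees of freedom of at least 115).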

Additional observations from a re-analysis of the deposited data

How the results depend on the processing

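The count of members called higher was 7 with edgeR and TMM scaling. It was 1 with library totals alone (Rpl11) and 1 with the GC trend removed without JMML replicate 1 (Rpl11). With the letter covariate it was 1, Rps20, whose highest level was in JMML replicate 3, the only JMML library with an M. The count was 3 with the length trend removed, 4 with at least 50 counts in 3 libraries (14630 genes tested) and 14 with no filter (35514 genes tested). By the DESeq2 Wald test 19 of 79 were called, beside 15.1% of all tested genes (12.4% with edgeR). Leaving out 1 library gave 1 to 9 members called higher. Shares of all tested genes called are given only for edgeR, DESeq2 and limma-voom. In the other settings a change in the members cannot be told apart from a change in calls as a whole. In the M libraries alone, with 1 JMML library, the median log2 fold change of the members was 0.22. The count of members called lower was 0 in every alternative run. The median log2 fold change of 0.35 was 0.16 with library totals alone, 0.18 with the letter covariate and 0.18 with the GC trend removed without JMML replicate 1, and 0.23 to 0.45 with 1 library left out. The difference in the share of counts, 0.388 percentage points, was 0.0194 in the M libraries. Settings that left libraries out had fewer samples; beyond that the cause was not tested.

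With the replicate number as a block 1 member was called higher. Deviations of same-numbered libraries from their group means correlated at -0.199, 0.0453 and -0.143, and JMML replicate 3 correlated best with WT replicate 1 (0.229). Deviations within a group of 3 sum to 0, so these correlations constrain each other and cannot show whether any pair was linked. That includes JMML replicate 3 and WT replicate 3, whose identifiers share their opening part.

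With 3 libraries a group, 1 of them above the others for most members, and with the letters unequal between groups, single genes had a median standard error of 0.15 beside a median log2 fold change of 0.35. Total counts were high enough that counting error was small for the 77 abundant members, whereas Rpl3l, Rpl39l and Rpl10l were limited by their counts.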
